A study of Rattus norvegicus with 12 samples.

Results

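The potassium channel gene family was examined in the basolateral amygdala (BLA) of rats with a history of sucrose snacks. Its members were all probe sets whose platform annotation gives exactly 1 gene symbol that starts with Kcn, without Kcnj13, which is a marker of choroid plexus. This gave 125 probe sets for 74 genes, of 31042 probe sets for 14217 genes in all. Expression was measured in male Long-Evans rats of 2 to 3 months (225 to 250 g) that were single housed with free chow and water. On 14 days the sucrose group could drink up to 4 mL of a 30% sucrose solution at each of 2 bottle sessions a day, while the extra bottle of controls held water. All rats were killed on the morning of day 15. Left and right BLA of 2 rats of one group went into one pool. The 24 rats thus filled 6 sucrose and 6 control arrays, and each array stands for a pair of animals and not a single one. No allele, drug or other treatment is named for either group.

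Potassium channels let potassium leave the cell and so pull the membrane back towards rest. Voltage-gated members end the action potential and set its threshold and rate, calcium-activated members cut firing after a burst, inward rectifiers and leak channels hold the resting potential, and auxiliary subunits change how the pore-forming subunits open and where they sit. In the BLA, a forebrain region of mostly glutamatergic projection neurons, they are known for the slow spike adaptation of these neurons and for the fast spiking of local interneurons. Glial cells carry their own inward rectifiers, which take up potassium released by neurons.

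Each deposited value is a ratio of the signal on an array to the mean signal of the 6 control arrays for the same probe set, and is used here as log2, so that 0 is the control mean and 1 a doubling. A ratio of this kind keeps no absolute level. Levels of different channels could therefore not be compared, a dim probe set could not be recognised, and the labelled tissue could not be checked against the level of its marker genes. Differences are sucrose minus control on the log2 scale, with the standard error (SE) of a limma fit over all 31042 probe sets and n = 6 arrays per group throughout. In pooled tissue, fewer cells of a type and less RNA per cell cannot be told apart.

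No potassium channel gene rose or fell after sucrose at an adjusted p under 0.05, and limma called 0 of 31042 probe sets (background 0.0%). The lowest adjusted p among the members was 0.376. The unadjusted p was under 0.05 for 9 of 125 members, 7.20%, against 7.57% of all probe sets, a share near the background that singles out nothing about the family. Of these members 6 were higher (4.5% of all probe sets were) and 3 lower (3.07% of all were). The higher ones were probe sets of the calcium-activated channel gene Kcnma1, the silent subunit gene Kcng3, the axonal channel genes Kcna1 and Kcna2, the M-current subunit gene Kcnq3 and the fast delayed rectifier gene Kcnc2, and the lower ones belonged to Kcnh2, Kcnj15 and Kcnip3.

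The differences of the family were small. They ran from -0.28 for Kcnh3 to 0.25 for Kcna2, with a median of -0.0065, beside a median of -0.0054 over all probe sets. 56 members were above 0 and 69 below, and the share above 0 was 44.8%, against 45.7% of all probe sets. A difference above 0.2 in size occurred for 5 of 125 members, a larger share than the 679 of 31042 probe sets (2.19%). The median SD over the 12 arrays was also larger, 0.10 for members and 0.086 for all probe sets. A count of 5 is too small to read as a result about the family. Of these 5 members, 2 were probe sets of Kcnma1. In 0 of 125 members the 6 sucrose arrays lay wholly above or below the 6 control arrays, against 0.425% of all probe sets. The unadjusted 95% interval of the difference lay within 1.25-fold either way for 118 of 125 members, and for 94.7% of all probe sets. The authors' deposited table of 145 selected probe sets holds 0 of the 125 members.

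**Figure D1:**
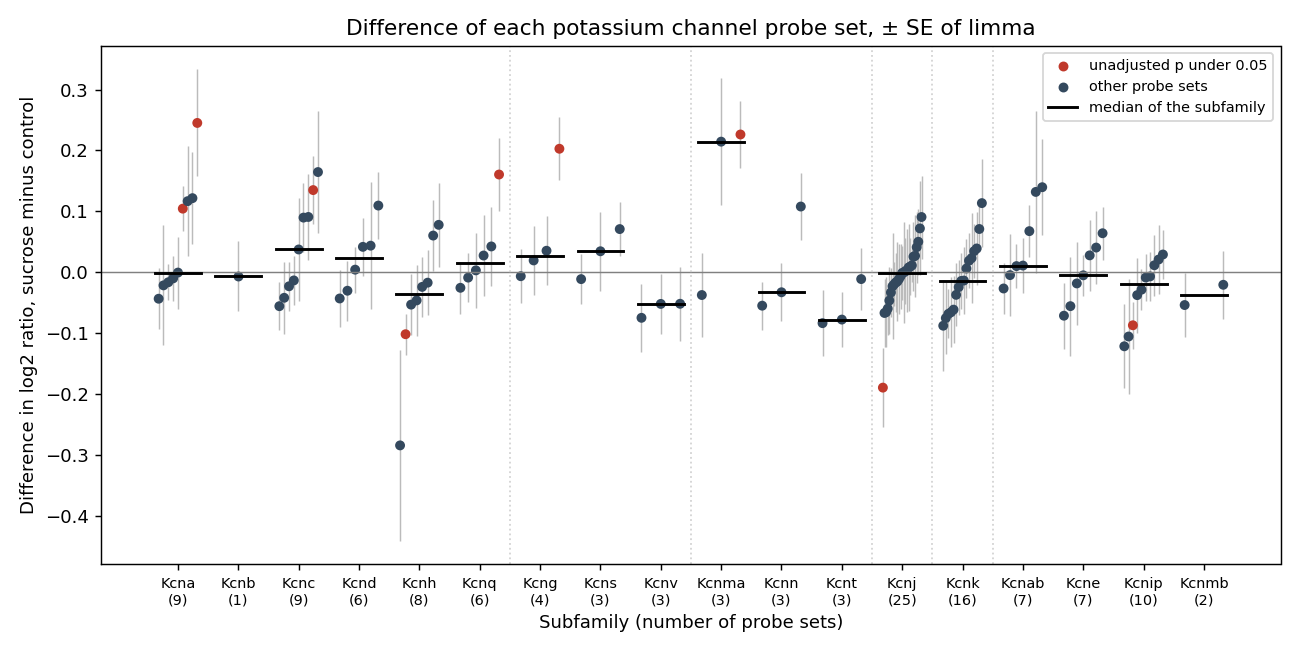
Difference in log2 ratio, sucrose minus control, of each of the 125 probe sets (points, bars ± SE of limma), by subfamily on the horizontal axis with the number of probe sets in brackets, and black lines at subfamily medians. Points lie between -0.28 and 0.25, and the 9 members at an unadjusted p under 0.05, in red, are spread over 8 subfamilies.

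Several arrays stood apart. Over 6 of 7 choroid plexus markers the mean log2 ratio was 1.64 on sucrose array 1. It was -0.24 to 0.33 on the other sucrose arrays and -0.27 to 0.20 on controls. Single markers on sucrose array 1 ran from 0.045 for Kcnj13 to 3.84 for Ttr. The mean of 10 of 12 oligodendrocyte and myelin markers was 0.46 on sucrose array 5 and -0.17 to 0.19 on the other sucrose arrays, against -0.11 to 0.10 on controls. On sucrose array 1 the 3′ minus 5′ log2 difference of the Gapdh and beta-actin control probe sets was lowest, at -0.14. It was -0.038 to 0.084 on the other 11 arrays. In this measure of RNA integrity a high value, not a low one, is the sign of breakdown. Control array 2 had 1.09 for 9 of 10 immediate early genes, where the other 11 arrays were between -0.65 and -0.22. Without these 3 arrays, a choice made with their values known, 6 members were higher and 5 lower at an unadjusted p under 0.05, and 0 passed the adjusted test. The shares of all probe sets in that fit are not given here, so these counts are not read as a result about the family. Mean log2 ratios of excitatory neuron markers (6 of 8 measured) ran from -0.029 to 0.20 on sucrose and from -0.11 to 0.087 on control arrays.

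The member with the lowest p was a probe set of Kcnma1, the pore-forming subunit of the large-conductance channel that opens on calcium and depolarisation together and shortens the spike. This probe set, 1370472_a_at, had log2 ratios of 0.34, 0.20, 0.28, 0.18, 0.11 and 0.23 on sucrose arrays 1 to 6 and of -0.16, 0.11, -0.052, 0.15, -0.082 and 0.011 on control arrays 1 to 6. All 6 sucrose values were above the control mean, and 5 of the 6 lay above every control, so the groups overlapped on sucrose array 5 only. The difference was 0.23 ± 0.055 (group means 0.22 ± 0.081 against -0.0040 ± 0.12, SD), a 1.17-fold ratio, with a limma adjusted p of 0.376. A second probe set, 1369334_at, had the wider spread of the gene and gave 0.21 ± 0.10 (adjusted p = 0.685), with values from -0.17 to 0.40 with a median of 0.24 on sucrose arrays, and from -0.33 to 0.18 with a median of 0.023 on control arrays. The third, 1372929_at, went the other way, at -0.037 ± 0.069 (adjusted p = 0.939). Where on the transcript each probe set lies was not analysed here.

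Kcnn3, a small-conductance channel of the afterhyperpolarisation that follows spikes, differed by 0.11 ± 0.056 (adjusted p = 0.708). Its values ran from -0.042 to 0.22 with a median of 0.13 on sucrose arrays, and from -0.11 to 0.16 with a median of -0.039 on control arrays, so the groups overlapped. Kcnn1 and Kcnn4 were below 0, at -0.033 ± 0.048 and -0.055 ± 0.039. The 3 probe sets of Kcnt1, a channel opened by sodium, were all below 0, from -0.084 to -0.011. The 9 probe sets of this class had a median of -0.033, with 3 above 0.

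Kcng3 had the next lowest p. It encodes a subunit that carries no current alone and assembles with Shab-type channels, whose gating it changes. On sucrose arrays 1 to 6 its only probe set, 1387845_at, had log2 ratios of 0.28, 0.26, 0.29, 0.0015, 0.17 and 0.21, and on control arrays 1 to 6 of -0.041, 0.038, -0.12, 0.017, -0.021 and 0.11. Sucrose array 4 lay among the controls, and the other 5 lay above all of them. The difference was 0.20 ± 0.052 (0.20 ± 0.11 against -0.0017 ± 0.077, SD), a 1.15-fold ratio, with an adjusted p of 0.383. The other silent subunits were closer to 0: the 3 probe sets of Kcng2 lay between -0.0065 and 0.035, those of Kcns1, Kcns2 and Kcns3 between -0.011 and 0.071, and those of Kcnv1 and Kcnv2 between -0.075 and -0.052. The single Shab-type member, Kcnb2, differed by -0.0054 ± 0.057 (adjusted p = 0.993).

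Kcna1 and Kcna2 encode Shaker-type subunits of axons, which open near rest and hold back repeated spikes. Kcna2 had the highest difference of the family, 0.25 ± 0.088 (0.24 ± 0.18 against -0.0075 ± 0.16, SD), on probe set 1370612_at, with an adjusted p of 0.552. Its values ran from 0.027 to 0.52 with a median of 0.21 on sucrose arrays, and from -0.26 to 0.15 with a median of 0.053 on control arrays. Sucrose array 1 was highest, and the low end of the sucrose arrays lay within the control range. The other probe set of Kcna2, 1379092_at, gave -0.010 ± 0.037. For Kcna1, with 1 probe set, values ran from -0.0025 to 0.17 with a median of 0.13 on sucrose arrays, and from -0.082 to 0.061 with a median of 0.00019 on control arrays, and 4 of 6 sucrose arrays lay above all controls. Its difference was 0.10 ± 0.037, with an adjusted p of 0.541. Of the 9 Shaker-type probe sets 4 were above 0 and 5 below, with a median of -0.00050, and Kcna4, the A-type member of this subfamily, was the lowest at -0.043 ± 0.050.

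The stretches of DNA before the genes of 3 of these members are shown because they are the members of lowest p in the calcium-activated, silent and Shaker-type subfamilies for which RefSeq holds a start site in the table used. Each is the 100 bases that end just before the RefSeq gene start in rat assembly GRCr8, 5′ to 3′ on the strand of the gene, and capitals mark the GC box GGGCGG or its reverse complement.
Kcnma1, chr15:351825-351924, plus strand: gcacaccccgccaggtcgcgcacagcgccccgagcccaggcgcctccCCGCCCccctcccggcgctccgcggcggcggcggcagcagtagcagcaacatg
Kcng3, chr6:16803742-16803841, plus strand: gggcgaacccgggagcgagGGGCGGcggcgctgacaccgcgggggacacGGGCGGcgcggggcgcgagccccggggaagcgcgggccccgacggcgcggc
Kcna2, chr2:197393430-197393529, plus strand: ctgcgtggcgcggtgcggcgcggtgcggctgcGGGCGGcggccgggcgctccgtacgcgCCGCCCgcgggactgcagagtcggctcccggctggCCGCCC

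These windows were 80, 87 and 85% G or C, in the order shown, and held 1, 2 and 3 GC boxes. Of the 74 member genes 51 had such a window, with a median of 66% G or C, against 58% over the 19005 protein-coding windows of the table. On either strand, GGGCGG was found in 20 of 51 member windows (39.2%) and 29.3% of all protein-coding windows. TATAAA was found in 1 member window, that of Kcnj1, and in 6.01% of all. The E-box CACGTG was found in 1, that of Kcne4, and in 3.37% of all, and the cAMP response element TGACGTCA in 0 and in 1.36% of all. A match of letters is not a bound site, and nothing was measured here on binding.

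**Figure D2:**
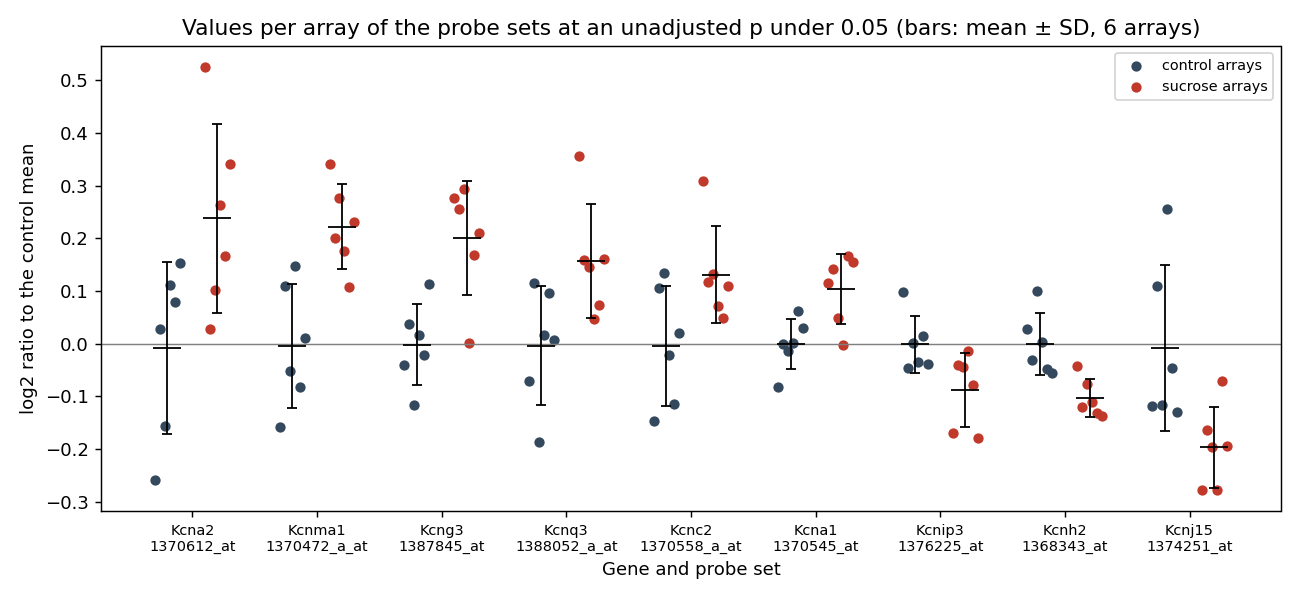
Log2 ratio to the control mean (vertical axis) on each of the 6 control and 6 sucrose arrays for the 9 members at an unadjusted p under 0.05, with mean ± SD as bars. In each of the 9 at least 1 sucrose array lies inside the range of the controls, and sucrose array 1 is the highest point for Kcna2, Kcnma1, Kcnq3 and Kcnc2.

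Kcnq3 encodes a subunit of the M-current, a slow current that muscarinic receptors turn off and that limits repeated firing. Probe set 1388052_a_at ran from 0.046 to 0.36 with a median of 0.15 on sucrose arrays, and from -0.19 to 0.12 with a median of 0.012 on control arrays. The difference was 0.16 ± 0.059 (0.16 ± 0.11 against -0.0036 ± 0.11, SD; adjusted p = 0.564), and 4 of 6 sucrose arrays lay above all controls. The other probe set of Kcnq3, 1369005_at, was at 0.042 ± 0.065. Kcnq5, another M-current subunit, had 3 probe sets between -0.025 and 0.0031, and Kcnq1, best known from heart and ear, was at 0.027 ± 0.066.

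Kcnc2 encodes a Shaw-type channel that closes quickly and lets interneurons fire at high rates. It had 6 probe sets, the most of any member, of which 5 were above 0, with differences from -0.042 to 0.16. Probe set 1370558_a_at had the lowest p, with 0.13 ± 0.056 (0.13 ± 0.092 against -0.0037 ± 0.11, SD; adjusted p = 0.604), and its values ran from 0.048 to 0.31 with a median of 0.11 on sucrose arrays, and from -0.15 to 0.13 with a median of -0.00095 on control arrays. Only sucrose array 1 lay above all controls there, and its unadjusted p was under 0.05 in 17 of 23 alternative settings. Leaving out sucrose array 1 gave a limma p of 0.0744, and leaving out control arrays 1, 4 and 5 in turn gave 0.0758, 0.0509 and 0.0706. The largest difference of the gene, 0.16 ± 0.10, came from probe set 1370557_a_at, which had more spread (adjusted p = 0.768). Kcnc1 was at -0.013 ± 0.040, and both probe sets of Kcnc4 were below 0, at -0.056 ± 0.040 and -0.023 ± 0.040. Means of 8 of 8 markers of GABAergic neurons ran from -0.0067 to 0.015 on sucrose and from -0.022 to 0.061 on control arrays. The single markers differed: 3 were above 0 and 5 below, with Gad1 at 0.15 ± 0.053 (limma adjusted p = 0.556).

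**Figure D3:**
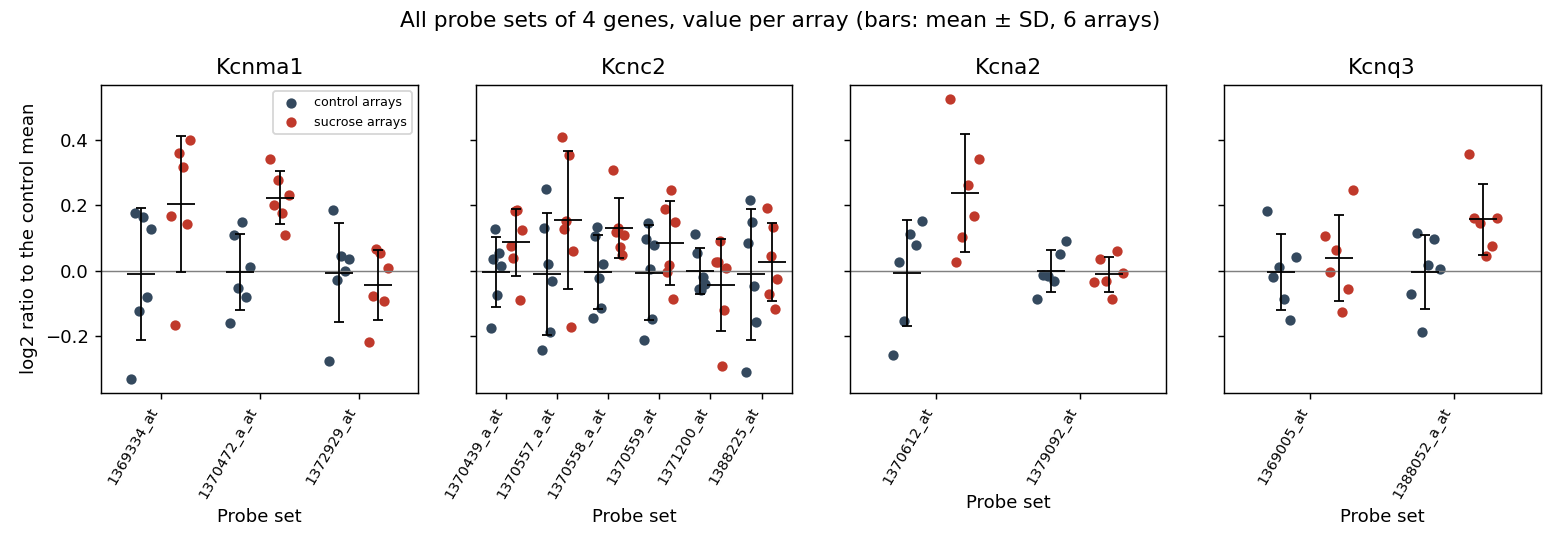
Log2 ratio to the control mean on each array for all probe sets of Kcnma1, Kcnc2, Kcna2 and Kcnq3 (horizontal axis), with mean ± SD of 6 arrays as bars. Probe set 1372929_at of Kcnma1 and 1379092_at of Kcna2 show no shift upward, at -0.037 and -0.010, beside 0.23 and 0.25 for other probe sets of these genes.

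The A-type channel gene Kcnd2, whose product damps signals that travel back into dendrites, was at 0.11 ± 0.055 on its more variable probe set (adjusted p = 0.696) and 0.042 ± 0.047 on the other. On the first of these, values ran from -0.025 to 0.21 with a median of 0.092 on sucrose arrays, and from -0.15 to 0.16 with a median of -0.029 on control arrays. Kcnd1 was at 0.0043 ± 0.038 and the 3 probe sets of Kcnd3 lay between -0.043 and 0.044.

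The ether-a-go-go group (Kcnh) had 2 of 8 probe sets above 0 and a median of -0.035. Kcnh2, the ERG channel that also repolarises the heart, had the lowest p among members below 0. Its values ran from -0.14 to -0.042 with a median of -0.12 on sucrose arrays, and from -0.056 to 0.10 with a median of -0.014 on control arrays, with 5 of 6 sucrose arrays below all controls. The difference was -0.10 ± 0.033 (-0.10 ± 0.036 against -0.00100 ± 0.059, SD; adjusted p = 0.499). Kcnh3, an Elk-type channel of forebrain neurons, had the widest range of all members, and is named here after its values were seen. It was at -0.23, 0.012, 0.023, 0.033, -0.998 and -0.58 on sucrose arrays 1 to 6 and at 0.060, -0.29, 0.12, -0.00070, 0.057 and 0.018 on control arrays 1 to 6. The low values came from sucrose arrays 5 and 6, which are also the arrays with the highest oligodendrocyte means, 0.46 and 0.19. Control array 2, with Kcnh3 at -0.29, had an oligodendrocyte mean of 0.078. Control array 3, with Kcnh3 at 0.12, had 0.095, and sucrose array 4, with Kcnh3 at 0.033, had 0.096. The difference was -0.28 ± 0.16 (adjusted p = 0.731). It was -0.14 without sucrose array 5 and -0.11 with the oligodendrocyte mean as a covariate. The cause of the low values was not tested.

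Inward rectifiers (Kcnj) were the largest subfamily, with 25 probe sets of 14 genes, 11 above 0 and 14 below, and a median of -0.0012. Kcnj15 was the only one at an unadjusted p under 0.05. Its probe set 1374251_at ran from -0.28 to -0.072 with a median of -0.20 on sucrose arrays, and from -0.13 to 0.26 with a median of -0.081 on control arrays, and 5 of 6 sucrose arrays lay below all controls. The difference was -0.19 ± 0.065 (-0.20 ± 0.077 against -0.0073 ± 0.16, SD; adjusted p = 0.522), and the other probe set of the gene was at -0.066 ± 0.058.

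The channels opened by G proteins, which carry the slow inhibition by GABA-B, opioid and other receptors, are built from Kcnj3, Kcnj5, Kcnj6 and Kcnj9. Their 10 probe sets lay between -0.033 and 0.072. For Kcnj6 the most variable probe set was at -0.015 ± 0.065, with values from -0.22 to 0.26 with a median of -0.028 on sucrose arrays, and from -0.068 to 0.057 with a median of 0.0058 on control arrays. Sucrose array 1 was the highest of the 12 for this probe set, for Kcnj9 (0.32) and for the most variable one of Kcnj3 (0.24), and sucrose array 2 the lowest for Kcnj6 and Kcnj9. Kcnj11, the pore of the channel that closes on ATP and couples glucose use to excitability, had 3 probe sets between -0.046 and 0.011.

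The glial inward rectifiers showed no difference past the threshold. Kcnj10, the main potassium uptake channel of astrocytes, was at 0.041 ± 0.058 (adjusted p = 0.916), with values from -0.12 to 0.19 with a median of 0.00053 on sucrose arrays, and from -0.10 to 0.17 with a median of -0.016 on control arrays. Kcnj16, which assembles with Kcnj10, was at -0.023 ± 0.087 and -0.00031 ± 0.084 on its 2 probe sets. Both probe sets of Kcnj16 were lowest on control array 5, at -0.26 and -0.26, where the mean of 8 of 9 astrocyte markers was also lowest, at -0.22 against -0.048 to 0.068 on other controls and -0.00023 to 0.24 on sucrose arrays. Kcnj10 was high on the same array, at 0.17. On sucrose array 2 the Kcnj16 probe sets were at -0.25 and -0.21, where the astrocyte mean was 0.083. The part of astrocyte content in these values was not tested.

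**Figure D4:**
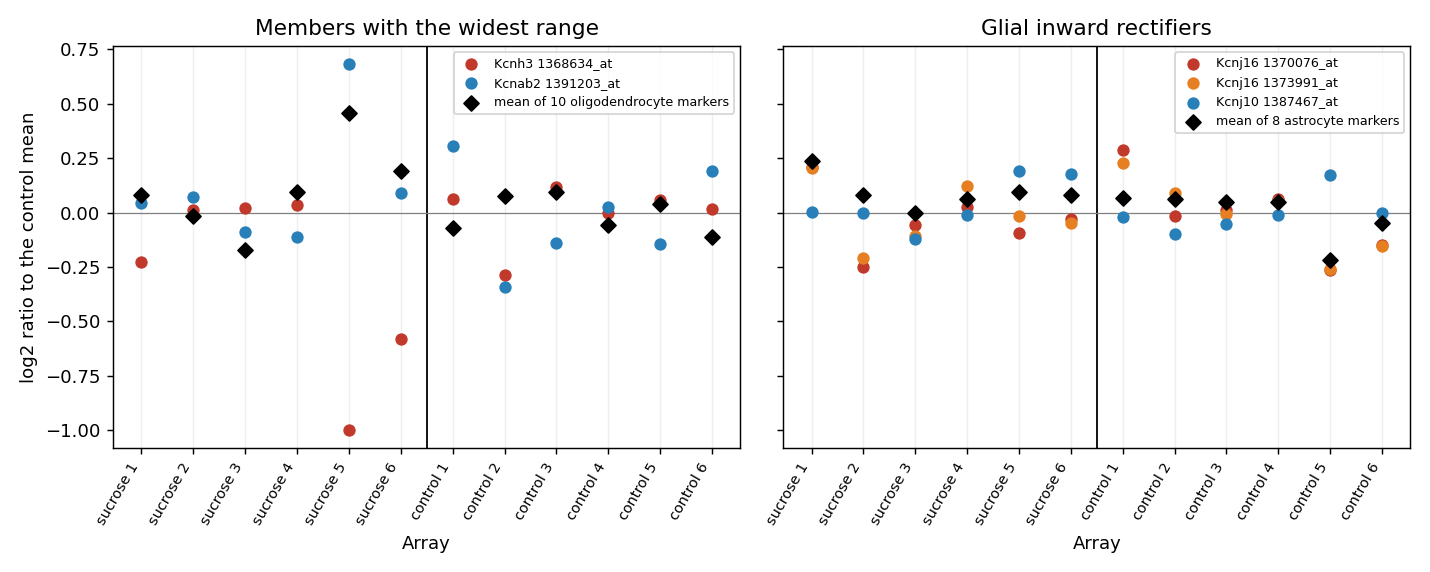
Log2 ratio to the control mean (vertical axis) on each of the 12 arrays (horizontal axis), as round points, for Kcnh3 and Kcnab2 beside the oligodendrocyte mean (left, diamonds) and for Kcnj16 and Kcnj10 beside the astrocyte mean (right, diamonds). Sucrose array 5 holds the lowest Kcnh3 and the highest Kcnab2 and oligodendrocyte values, and control array 5 the lowest Kcnj16 and astrocyte values.

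The leak channels with a double pore domain (Kcnk) hold the membrane at rest. None of their 16 probe sets, from 11 genes, had an unadjusted p under 0.05, 7 were above 0 and the median was -0.014. Kcnk10, which opens on stretch and warmth, had the lowest p, with 0.071 ± 0.039 (adjusted p = 0.725) and values from 0.026 to 0.11 with a median of 0.068 on sucrose arrays, and from -0.11 to 0.12 with a median of -0.0075 on control arrays. Its other probe set was at 0.039 ± 0.060. The ends of the range were Kcnk2, a relative of Kcnk10, at -0.088 ± 0.074, and the acid-sensitive channel gene Kcnk9 at 0.11 ± 0.072. Kcnk3, the acid-sensitive relative of Kcnk9, had 3 probe sets below 0, from -0.075 to -0.014.

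Among auxiliary subunits, 11 of 26 probe sets were above 0, with a median of -0.0059. Kcnip3 encodes a calcium-binding partner of A-type channels that is also known as a transcriptional repressor. Its probe set 1376225_at was at -0.087 ± 0.039 (-0.088 ± 0.070 against -0.00085 ± 0.054, SD; adjusted p = 0.631), with 3 of 6 sucrose arrays below all controls, and its other probe set at 0.011 ± 0.050. The unadjusted p of 1376225_at was under 0.05 in 10 of 23 alternative settings, and above it when any of sucrose arrays 1, 5 and 6 or control arrays 1, 3 and 5 was left out, up to 0.0990 without control array 1. The whole group of A-type partners (Kcnip1 to Kcnip4) had 3 of 10 probe sets above 0, and ran from -0.12 to 0.029, with Kcnip1 lowest. Kcnab2, a beta subunit of Shaker-type channels, had 4 of 4 probe sets above 0, up to 0.14 ± 0.079. Another of them, 1391203_at, reached 0.68 on sucrose array 5 and lay between -0.11 and 0.092 on the other sucrose arrays and between -0.34 and 0.31 on controls. Its difference was 0.13 ± 0.13 with all arrays and 0.019 without sucrose array 5. On sucrose array 5 the other probe sets of Kcnab2 lay between -0.058 and 0.055. Kcnmb4, the neuronal beta subunit of the Kcnma1 channel, was at -0.021 ± 0.056, and Kcnmb1, its smooth muscle relative, at -0.054 ± 0.053. The small single-span Kcne subunits ran from -0.071 to 0.064.

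Proteins that bind, cluster or regulate potassium channels, or are close relatives of them, were listed separately, with results on some of them already known. Of 24 measured of 27, 0 passed the adjusted test, 15 were above 0 and 9 below, and 7 were higher and 0 lower at an unadjusted p under 0.05, where 4.5% and 3.07% of all probe sets were. These were Adam23 (0.36 ± 0.066), a neuronal receptor of the secreted protein Lgi1 in the Shaker-type channel complex, the M-current anchor genes Akap9 (0.28 ± 0.066) and Akap5 (0.24 ± 0.10), the scaffold genes Dlg1 (0.12 ± 0.039) and Dlg2 (0.15 ± 0.057), Ank3 (0.18 ± 0.058), which holds M-channels at the axon initial segment, and Lingo1 (0.29 ± 0.11). Their adjusted p lay between 0.231 and 0.612, and the 0.231 of Adam23 was the lowest reached by any of the 31042 probe sets. As results on some of the list were known when it was made, its counts against the background are no independent support. The list had a median of 0.019, with each gene read on its most variable probe set. Over all 14217 genes read in that way the median was -0.0068. Of these genes, 727 were higher and 453 lower at an unadjusted p under 0.05. Other probe sets of the listed partners are not reported here. Dpp6 and Dpp10, partners of A-type channels, were at -0.024 ± 0.046 and -0.0020 ± 0.040, and Abcc8, the sulphonylurea receptor that pairs with Kcnj11, at 0.022 ± 0.052. Hcn2, Hcn3 and Hcn4, channels of the mixed current that opens on hyperpolarisation, lay between -0.050 and 0.0021.

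Probe sets of 1 gene often differed in sign, which was read whatever the size of the difference, also near 0. The same share over all genes with several probe sets is not given here. Of 31 genes with several probe sets, all of them went one way in 17 (5 higher and 12 lower) and both ways in 14. The other 43 genes had 1 probe set each. With each gene represented by its most variable probe set, 38 of 74 genes were above 0 with a median of 0.0030, beside -0.0068 over all 14217 genes, and with the mean of its probe sets 36 were, with a median of -0.0076.

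Averaged over the 125 members, the log2 ratio ran from -0.033 on sucrose array 2 to 0.040 on sucrose array 1, and on controls from -0.028 on array 1 to 0.023 on array 3, so the groups overlapped fully. Control array 1 held the lowest value of the 12 for 23 members (18.4%, against 8.53% of all probe sets), among them 5 of the 6 Kcnc2 and all 3 Kcnma1 probe sets. The excitatory neuron mean was also lowest on control array 1, at -0.11, and highest on sucrose array 1, at 0.20. Its part in these values was not tested. The markers differed: on control array 1 and sucrose array 1, Slc17a7 was -0.092 and -0.038, and Slc17a6 -0.041 and -0.040. In the same order Camk2a was -0.25 and 0.46, Neurod6 -0.31 and 0.27, Neurod2 0.029 and 0.34, and Tbr1 0.0065 and 0.19. Without control array 1 the difference of Kcnma1 1370472_a_at was 0.20, of Kcna2 0.19, of Kcnq3 0.15 and of Kcnc2 0.11. Without sucrose array 1 these were 0.20, 0.19, 0.12 and 0.10, and with the 3′ minus 5′ difference as a covariate 0.21, 0.21, 0.14 and 0.12. Control array 5 held the highest for 24 (19.2%, against 15.7%) and sucrose array 1 for 17 (13.6%, against 10.7%). The mean of the Kcnma1 probe sets was -0.26 on control array 1 and 0.16 on control array 2, and from -0.015 to 0.23 on sucrose arrays. The median SD of a member over the 12 arrays was 0.10, beside 0.086 for all probe sets.

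**Figure D5:**
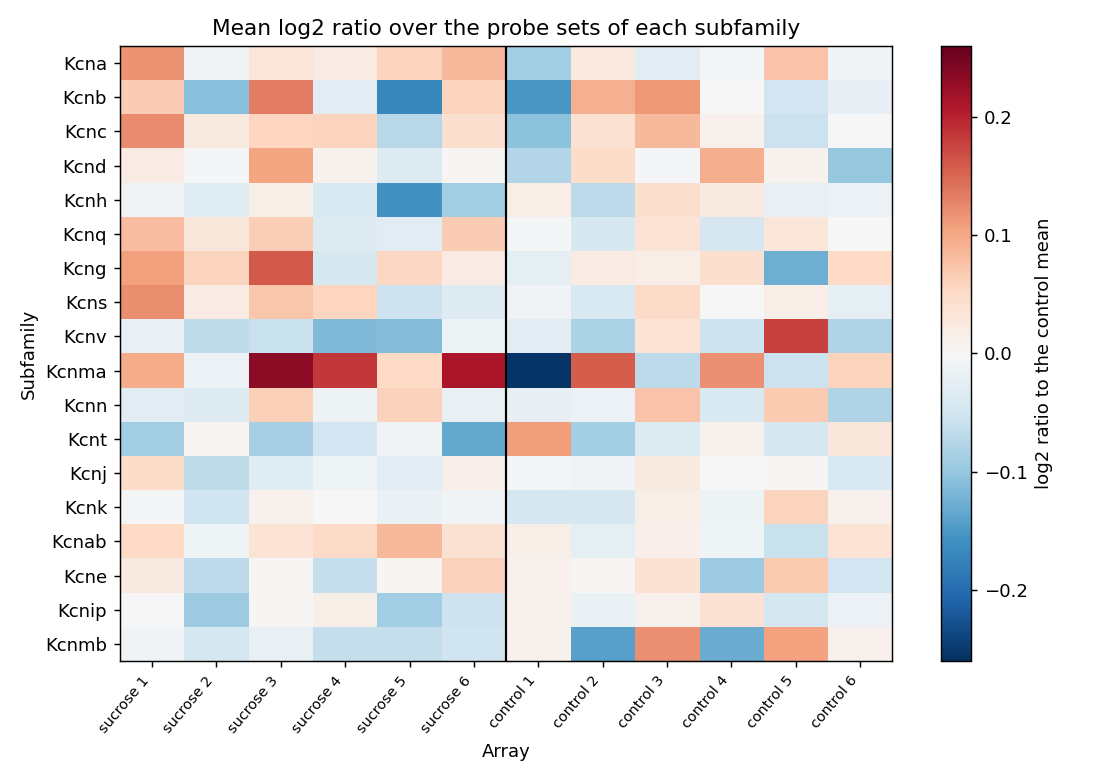
Mean log2 ratio to the control mean over the probe sets of each of the 18 subfamilies (rows) on each array (columns, sucrose left and control right of the line), from blue (below 0) to red (above 0). The Kcnma row, which holds the 3 Kcnma1 probe sets, has the widest span, from -0.26 on control array 1 to 0.23 on sucrose array 3.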

How the data were processed

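RNA of 12 pools was hybridised to whole-genome rat arrays, and the submitters' processing notes name RMA, with no version. The deposited values are ratios, which the authors set relative to control: for every probe set the 6 control arrays averaged 1, within 2.02e-07. Other steps are not stated in the labels. The deposited table of 145 probe sets gives the authors' p-values and mean ratios, and was used for membership only. Of 31099 probe sets, 57 manufacturer controls were left out. A linear model was fitted to the log2 ratios (limma 3.58.1, R 4.3.3; lmFit, eBayes without variance trend, group as the only term, two-sided) and adjusted by the Benjamini-Hochberg method over 31042 probe sets at 0.05; the fit was tested on simulated data. All 125 members matched RefSeq (GRCr8) by gene identifier, and promoter windows are RefSeq's. No protein sequences were used. Pools held different rats, per the labels, and precision is limited by the number of arrays.

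Members and lists were chosen with earlier results of these data known. Probe sets named were all members at an unadjusted p under 0.05, the lowest p of 8 subfamilies, the most variable probe set of a fixed set of genes (some of which are not reported here), their other probe sets, and the ends of ranges. Replicate numbers mark pools of different rats and were not taken as pairs. Same-numbered arrays of both groups correlated in their deviations by -0.15 to 0.19. Only sucrose array 4 correlated best with the control array of its own number. Whether same-numbered arrays shared a processing step was not tested, and a fit with the replicate as a block is given below.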

Additional observations from a re-analysis of the deposited data

Results flagged for a closer look

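Of 36 groups of 6 values examined for the named probe sets, 5 held a value that Dixon's 95% criterion sets apart from the remaining 5, where chance gives about 1.8. 2 of them came from the probe sets named for their wide range. Kcnq3 1388052_a_at was 0.36 on sucrose array 1 and 0.046 to 0.16 on the other sucrose arrays. Kcnc2 1370558_a_at was 0.31 on the same array and 0.048 to 0.13 on the others. Spike-in probes read 0.18 on that array, above the other 11, and it had the highest choroid plexus mean, 1.64. The 3′ minus 5′ difference of the Gapdh and beta-actin control probe sets was lowest there, -0.14 against -0.038 to 0.084. A low value of this difference is not a sign of RNA breakdown. The part of choroid plexus in the Kcnq3 and Kcnc2 values was not tested. Kcnab2 1391203_at was 0.68 on sucrose array 5, against -0.11 to 0.092. Kcnh3 was -0.29 on control array 2 and -0.00070 to 0.12 on the other controls, and Kcnj10 was 0.17 on control array 5 and -0.10 to -0.0023 on the others.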

How the results depend on the processing

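No member passed an adjusted p of 0.05 under any of the 24 alternatives run. In the fit to all arrays 9 members had an unadjusted p under 0.05. Without 1 array in turn, 5 to 11 members were higher and 2 to 5 lower at an unadjusted p under 0.05. The highest count of higher members, 11, came without sucrose array 5, and 5 were lower without control array 4, without sucrose array 4 and without the 3 arrays that stand apart. Under the other alternatives (normalization, centring, linear ratios, prior variance, array weights, covariates, probe sets with 1 symbol) 6 to 7 were higher and 2 to 3 lower. With array weights 7 were higher and 3 lower, beside 3.97% and 2.98% of all probe sets. With the 3′ minus 5′ difference as a covariate 6 were higher and 2 lower, beside 4.54% and 3.23%. Shares of all probe sets for the remaining settings are not given here, so those counts are not read as a result about the family. The replicate block gave 6 higher, 3 lower and 0 past the adjusted test, but not the same members: the unadjusted p of Kcnc2 1370558_a_at became 0.0515, of Kcnip3 1376225_at 0.0820 and of Kcnd2 1387476_at 0.0291. Of 414 values of 18 named probe sets, 399 kept their direction, among them every value of the 9 members at an unadjusted p under 0.05. Of these members, 5 stayed under 0.05 in all 23 settings, Kcna1 and Kcna2 in 22 (not without the 3 arrays that stand apart), Kcnc2 in 17 and Kcnip3 in 10. Apart from Kcnab2, the probe sets that turned differed by no more than 0.041 in size with all arrays. Kcnb2 was 0.0037 with array weights, 0.0017 after a second quantile normalization and 0.0011 with the spike-in level. With the oligodendrocyte mean as covariate Kcnb2 was 0.016, Kcnj6 0.0034 and Kcnj10 -0.0066. Without the 3 arrays that stand apart Kcnb2 was 0.036, Kcnj10 -0.0068 and Kcnab2 -0.058. Without 1 array in turn Kcnb2 ran from -0.035 to 0.027 and Kcnj6 from -0.071 to 0.025. Causes were not tested. A filter on dim probe sets was not run, since ratios keep no level.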
